A study of Mus musculus with 18 samples.

Results

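The immediate early genes examined here were Fos, Fosb, Jun, Junb, Egr1, Egr2, Nr4a1, Atf3, Ier2 and Dusp1. They were taken by name from 4 tables of gene expression, 1 for each tissue, and each of the 10 symbols matched 1 of the 46078 gene identifiers of a table. The series asked what loss of Xist, the noncoding RNA that silences an X chromosome in female cells, does to expression in female mice. Mutants carried an Xist homozygous deletion and controls an Xist heterozygous deletion, so the controls also carried the deletion on an X chromosome, although their columns in the tables are named WT. The sources used here do not say which bases were deleted or at what stage. Total RNA depleted of ribosomal RNA was sequenced from primary tail-tip fibroblasts (3 mutant and 3 control libraries) and from spleen, liver and brain at postnatal day 1 (2 mutant and 2 control libraries each), for 18 libraries in 8 groups. Replicates are biological, per the design text, which does not say whether animals were pooled or litters shared. None of the 10 genes is on the X chromosome.

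Immediate early genes are transcribed within minutes of a stimulus, without new protein synthesis, when kinases activate transcription factors such as SRF and CREB that already sit at their promoters. Most of their products are themselves transcription factors, which turn on later genes, and their messenger RNAs are short-lived. In whole organs they are known to respond to handling, stress hormones, growth factors and tissue dissociation, and in brain to neuronal activity. In bulk RNA, fewer cells of a type and less RNA per cell cannot be told apart.

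Each library held 12.4 M to 29.2 M reads assigned to genes. Values are the authors' scaled read counts, called signal, in which 1 read was worth 0.0343 to 0.0751 and a count of 0 allows up to 0.103 to 0.225. Xist was lower in each mutant than in each control of its tissue, at 3.62 and 4.15 in brain mutants against 666 and 683 in brain controls, 117 and 51.2 in spleen mutants against 1205 and 1121 in spleen controls, 178 and 257 in liver mutants against 594 and 730 in liver controls, and 11.04, 13.5 and 2.33 in fibroblast mutants against 141, 98.2 and 70.5 in fibroblast controls. Liver mutants therefore kept a larger share of the control level than brain mutants did. The summed signal of 6 hepatocyte markers was 74192 to 111563 in liver and at most 995 elsewhere. That of 6 neuronal markers was 3771 to 4419 in brain and at most 78.0 elsewhere, and that of 6 fibroblast markers was 19143 to 34628 in fibroblasts and at most 4747 elsewhere. In spleen, 6 lymphocyte markers summed to 86.1 to 310.3, against at most 38.03 in other tissues.

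The bases before the start are shown for the genes that passed the threshold in newborn liver or spleen by DESeq2 or by limma on all 18 libraries, since these are the ones the results turn on. Of the 10 genes, 8 had a window of 250 bases before a start in the RefSeq promoter table (GRCm38.p6), and Egr1 and Ier2 were not in it. The windows were searched on both strands for the cyclic AMP response element (CRE) TGACGTCA and its core TGACG, the AP-1 site TGANTCA, the EGR site GCGNGGGCG, the TATA box TATAAA and the CArG box by name. Capitals mark each match, written 5′ to 3′ along the gene, so that a match on the opposite strand reads as its reverse complement. From the Dusp1 window the 47 bases that an annotated exon covers were left out, which leaves 203.
Fos, chr12:85473640-85473889, plus strand: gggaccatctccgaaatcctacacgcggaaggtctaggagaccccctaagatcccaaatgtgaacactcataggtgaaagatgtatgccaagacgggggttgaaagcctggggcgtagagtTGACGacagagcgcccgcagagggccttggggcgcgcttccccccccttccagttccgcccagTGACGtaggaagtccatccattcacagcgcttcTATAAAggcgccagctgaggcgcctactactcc
Jun, chr4:95052223-95052472, minus strand: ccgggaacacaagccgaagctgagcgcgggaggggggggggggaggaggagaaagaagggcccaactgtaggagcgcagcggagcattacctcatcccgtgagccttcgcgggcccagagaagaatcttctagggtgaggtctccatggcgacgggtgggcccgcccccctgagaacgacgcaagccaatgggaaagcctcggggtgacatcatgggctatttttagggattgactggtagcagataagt
Nr4a1, chr15:101266596-101266845, plus strand: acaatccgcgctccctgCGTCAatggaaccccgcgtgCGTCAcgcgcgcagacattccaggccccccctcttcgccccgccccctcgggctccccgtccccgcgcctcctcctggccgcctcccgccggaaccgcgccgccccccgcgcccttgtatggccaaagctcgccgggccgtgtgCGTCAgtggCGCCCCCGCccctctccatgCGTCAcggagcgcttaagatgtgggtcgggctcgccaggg
Dusp1, chr17:26508520-26508722, minus strand: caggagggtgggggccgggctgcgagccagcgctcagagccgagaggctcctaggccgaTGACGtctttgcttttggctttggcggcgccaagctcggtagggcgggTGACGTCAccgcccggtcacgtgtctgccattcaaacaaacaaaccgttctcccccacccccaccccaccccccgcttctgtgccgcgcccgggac

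The CRE core TGACG was present before 7 of the 8 genes, all but Jun, and before 19.8% of the 27025 genes of the table. The Atf3 match, at 7 to 3 bases before the start, lies within bases that an annotated exon covers. Each full CRE also holds the core on both strands, and the full CRE TGACGTCA was found before Dusp1 and 1.77% of all genes. Nr4a1 had the core at 4 positions, the lowest number of bases from the start being 36, and an EGR site, which was also found before Fosb and 5.33% of all genes. Fos had the core at 2 positions and a TATA box at 33 to 28 bases before its start, a box found before 14.3% of all genes. The CArG box, bound by SRF, was found before Egr2 and 1.62% of all genes. No exact AP-1 site was found before the 8 genes, against 7.82% of all genes. The search took exact patterns in 250 bases only, so variant sites and sites farther upstream were not seen. The Jun window holds tgacatca, which is close to the full CRE but matches none of the patterns. A match is a run of letters, not a measured site, and binding was not measured.

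**Figure D1:**
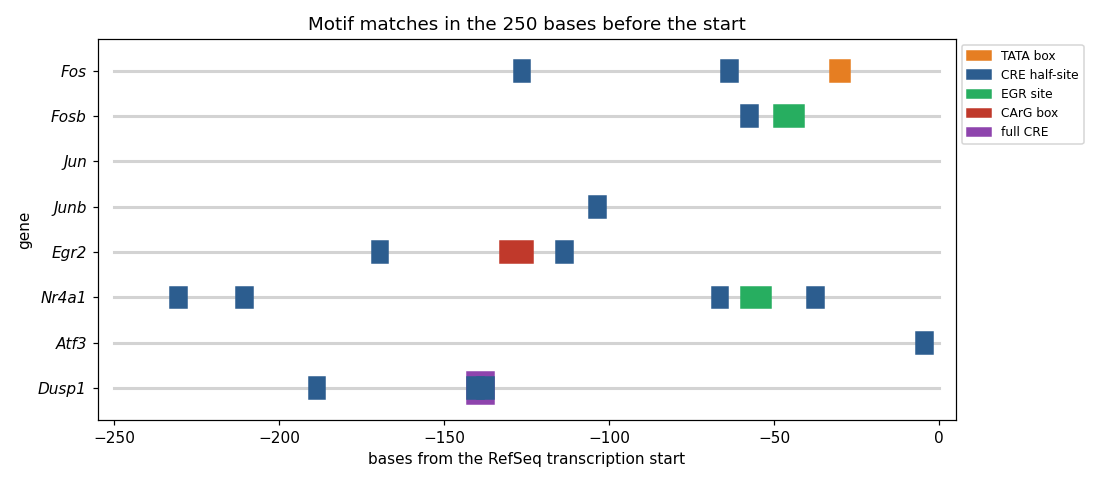
Positions of motif matches in the 250 bases before the RefSeq start of 8 immediate early genes, 1 grey line per gene, with the start at 0 on the right and bases before it as negative numbers. Blue boxes are CRE cores, the purple box before Dusp1 is the full CRE with its cores in blue, green boxes are EGR sites, the orange box is the TATA box of Fos and the red box the CArG box of Egr2, shown for the most downstream of its 5 windows. Jun has no exact match to the patterns searched.

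The genes lie on 9 chromosomes (GRCm38, GENCODE release M21). Fos is at chr12:85473890-85477273, Fosb at chr7:19302696-19310051, Jun at chr4:95049034-95052222 and Junb at chr8:84974484-84978718. Egr1 is at chr18:34859823-34864984, Egr2 at chr10:67535475-67542188 and Nr4a1 at chr15:101254269-101274795. Atf3 is at chr1:191170296-191218039, Ier2 at chr8:84661331-84662852 and Dusp1 at chr17:26505590-26562128. Jun and Ier2 are annotated with 1 exon. Exons of Junos overlap those of Jun, exons of Prdx2 those of Junb and exons of Ergic1 those of Dusp1, each on the opposite strand. The GENCODE spans of Fosb, Egr2, Nr4a1, Atf3 and Dusp1 begin farther upstream than the RefSeq starts used for the windows above. The Atf3 window, chr1:191183334-191183583 on the minus strand, thus lies within the GENCODE span of the gene. The sources used here do not say whether reads were counted by strand, so reads of these pairs may not be separated.

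In controls the level was highest in fibroblasts for each of the 10 genes, as far as tables that were normalized separately allow levels to be set side by side. Per kilobase of exon, the fibroblast controls were led by Junb at 121.7 ± 10.4, Jun at 85.2 ± 5.75 and Fos at 45.0 ± 49.1 signal (SD, n = 3), and Atf3 was lowest at 1.58 ± 0.144. Junb and Jun encode basic leucine zipper proteins that pair with each other or with FOS proteins to form the AP-1 factor. In liver controls Junb was again highest at 19.6 ± 13.8 per kilobase (SD, n = 2), with Ier2 at 17.0 ± 10.4 and Dusp1 at 12.5 ± 3.91. In brain controls Jun led at 22.4 ± 2.25 per kilobase and Dusp1 followed at 7.18 ± 0.234, while Junb stood at 4.89 ± 0.435.

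The order of the other tissues differed between genes. On the signal scale Fos in controls stood at 106 ± 115 in fibroblasts (SD, n = 3), 12.6 ± 1.69 in spleen, 6.05 ± 0.293 in brain and 3.18 ± 0.449 in liver (SD, n = 2 each), with no overlap between neighbours. For Ier2 and Dusp1 the fibroblast controls overlapped the spleen controls, so those neighbours did not differ beyond their spread. For Egr1 the controls of liver, brain and spleen overlapped one another as neighbours, at means of 27.7, 24.1 and 22.6. Fosb neighbours overlapped between brain and spleen and between spleen and liver, Nr4a1 between brain and spleen, Junb between spleen and liver, and Atf3 between liver and spleen. Fosb was close to the counting floor in liver controls, at 3 and 5 reads.

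**Figure D2:**
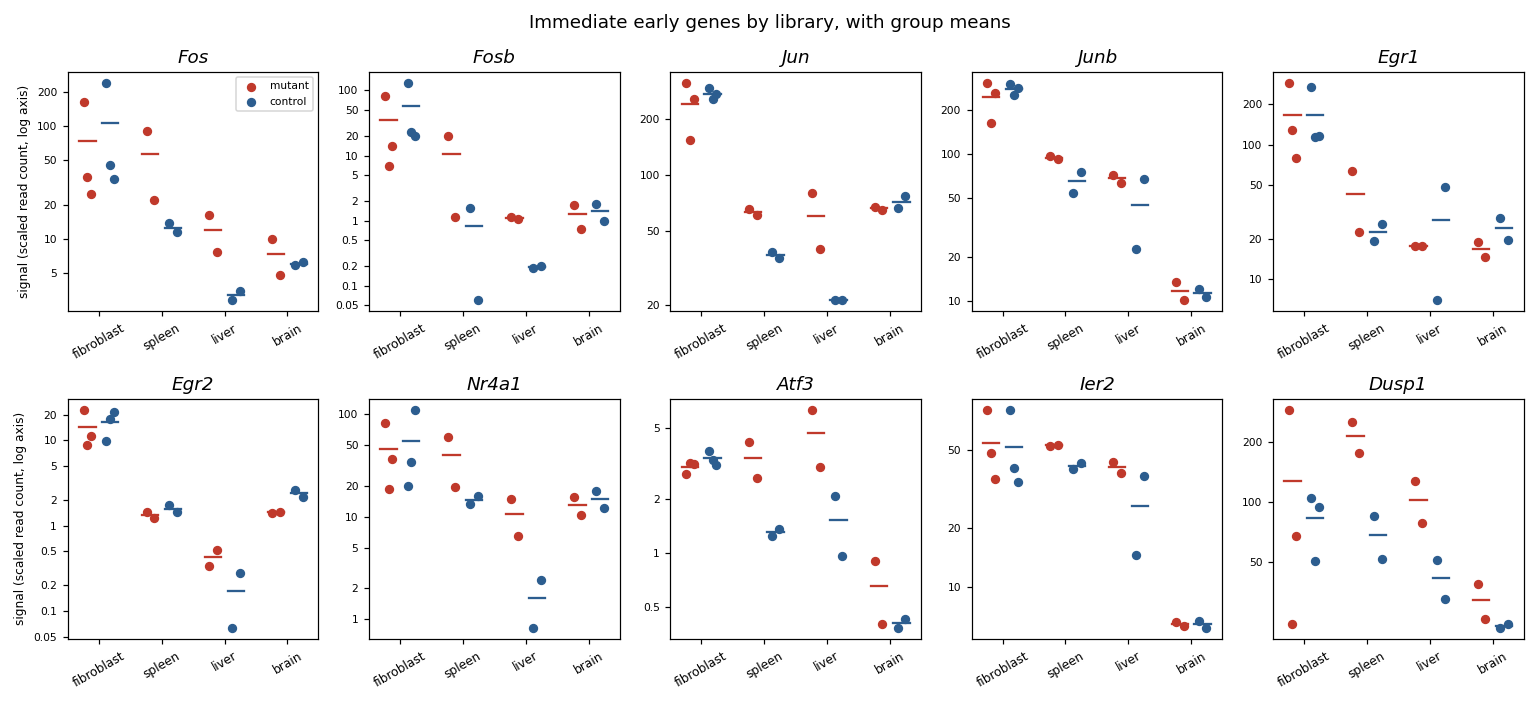
Signal of each gene (scaled read count, log axis) in every library, by tissue, with mutants in red on the left and controls in blue on the right of each tissue and bars for group means (3 libraries per group in fibroblasts, 2 elsewhere). In liver and spleen the red points of Fos, Jun, Nr4a1, Atf3, Ier2 and Dusp1 lie above the blue ones, and in fibroblasts the colours overlap for all 10 genes.

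In newborn liver, the 8 genes whose signal averaged 1 or more over the liver table entered the test, limma on log2(signal + 0.5). Of these, 6 had a higher signal in both mutants than in either control, where 23.5% of all 15075 genes tested did. They were Fos, Jun, Nr4a1, Atf3, Ier2 and Dusp1, while Junb and Egr1 overlapped. Fosb and Egr2, too low for the test, were also higher in both mutants. Egr2 held 7 reads in mutant 1 and in control 2, so its separation came from the scaling. The median log2 fold change of the 8 tested genes was 1.31, beside 0.05 over all genes tested. Of the 8, 5 were above 1, as were 2.29% of all genes. No gene passed an adjusted p of 0.05 by limma or by edgeR. By unadjusted p, 5 of the 8 were under 0.05 with mutants higher (4.39% of all genes). DESeq2 on the recovered reads called 2 of them higher, Fos and Nr4a1, against 0.748% of all genes.

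Among the FOS proteins, Fos read 16.4 and 7.65 in liver mutants, against 2.86 and 3.50 in liver controls. Fos gave a log2 fold change of 1.68 (SE 0.40, adjusted p = 0.594 by limma and 0.0337 by DESeq2). Its adjusted p over all alternatives lay between 0.0262 and 1.00. Fosb, a close relative of Fos, was detected at 24 and 31 reads in mutants (signal 1.14 and 1.06), against 3 and 5 reads in controls (0.191 and 0.201), and was too low for the test. Both FOS genes thus had a higher signal in each mutant than in each control.

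Jun, the core partner of AP-1, read 79.9 and 39.7 in liver mutants, against 21.3 and 21.1 in liver controls. The controls lay close together and the mutants differed by more than the lower mutant differed from the controls. The log2 fold change of Jun was 1.39 (SE 0.37, adjusted p = 0.641 by limma and 0.060 by DESeq2). Jun passed when all 18 libraries shared 1 estimate of the spread (limma adjusted p = 0.0311, where 1.27% of all genes were called higher), with a range of 0.0140 to 1.00 over its alternatives. Junb, which can also restrain JUN activity, read 72.6 and 64.0 in mutants, against 22.6 and 67.7 in controls, so that control 2 lay between the mutants. Atf3, a stress-induced member of the same zipper family, read 6.33 and 3.05 in mutants, against 2.10 and 0.965 in controls (log2 fold change 1.34, SE 0.47, limma adjusted p = 0.731).

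Nr4a1, an orphan nuclear receptor known in liver for its part in glucose production, had the largest fold of the tested immediate early genes in liver. It read 14.9 and 6.52 in mutants, against 0.827 and 2.41 in controls, with means of 10.7 ± 5.92 and 1.62 ± 1.12 (SD, n = 2 each). The log2 fold change was 2.40 (SE 0.56, adjusted p = 0.582 by limma and 0.00376 by DESeq2), with a range of 0.00180 to 1.00 over its alternatives. Egr1, a zinc finger factor of growth signalling, read 17.6 and 17.8 in mutants, against 6.996 and 48.5 in controls. The 2 mutants lay between the controls, and the log2 fold change of -0.08 (SE 0.88, limma adjusted p = 0.997) became 1.28 without control 2. Egr2, its relative, held 7 and 15 reads in mutants, against 1 and 7 in controls, too few for the test.

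Dusp1, the phosphatase that switches off MAP kinases, read 126.7 and 78.4 in liver mutants, against 50.6 and 32.3 in liver controls. Both mutants were above both controls, and the log2 fold change was 1.29 (SE 0.36, limma adjusted p = 0.653). Ier2, a nuclear protein induced by growth factors, read 43.7 and 38.5 in mutants, against 14.6 and 37.1 in controls (log2 fold change 0.80, SE 0.46, limma adjusted p = 0.835). For Ier2 the lower mutant and the higher control were nearly equal.

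Single libraries weighed on these values. Mutant 1 was the highest of the 4 liver libraries for 8 of the 10 genes, and control 1 was the lowest for 7. Control 1 was also the shallowest, at 15.8 M reads, yet held reads in 28889 genes, against 23623 to 27207 in the other livers. Without control 1 the log2 fold changes of Junb and Ier2 were 0.01 and 0.14. Refitted with DESeq2 without mutant 1 or without control 1, 0 of the 10 genes were called, and without mutant 2 the called genes were Fos, Nr4a1 and Jun. Fibroblast markers moved with the genes, with 6 of 6 higher in both mutants than in both controls (23.5% of all genes). Their sums were 538 to 628 in mutants and 386 to 464 in controls. Of 6 endothelial markers, 5 did the same (23.5% of all genes), with sums of 630 to 636 in mutants and 496 to 566 in controls. Hepatocyte markers summed to 74192 to 109289 in mutants and 74665 to 111563 in controls, and none of these 18 markers was without reads in liver. Among the hepatocyte markers Tat, a tyrosine-degrading enzyme, read 5327 and 3290 in mutants, against 334 and 536 in controls, and was called higher by DESeq2 (adjusted p = 1.6e-13; 0.333 by limma). Ttr, a carrier of thyroid hormone, read 1172 and 779 in mutants, against 2451 and 1573 in controls (log2 fold change -1.04, SE 0.40, limma adjusted p = 0.746). The part of these markers in the result was not tested.

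In newborn spleen, 7 of the 10 genes had a higher signal in both mutants than in either control (Fos, Jun, Junb, Nr4a1, Atf3, Ier2 and Dusp1), where 18.3% of all 16578 genes tested did. Egr2 was lower in both mutants (21.9% of all genes), and Fosb and Egr1 overlapped. The median log2 fold change of the 10 was 0.92, beside -0.07 over all genes tested, and 5 were above 1 (4.46% of all genes), among them Fosb, whose control mean of 0.823 was below the filter, so that it entered the test through its mutants. No gene passed by limma or edgeR, and 5 of the 10 had an unadjusted limma p under 0.05 with mutants higher (4.69% of all genes). DESeq2 called Fos and Dusp1 higher, against 0.753% of all genes.

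Dusp1 had the highest signal of the spleen mutants' immediate early genes per kilobase, and read 253.8 and 176.2 in mutants, against 84.6 and 51.5 in controls. The mutant mean of 215 ± 54.9 was 3.16-fold the control mean of 68.0 ± 23.4 (SD, n = 2 each). The log2 fold change was 1.67 (SE 0.35, adjusted p = 0.443 by limma and 0.00398 by DESeq2). Fos read 89.5 and 22.2 in mutants, against 13.8 and 11.4 in controls. The log2 fold change of Fos was 1.79 (SE 0.61, adjusted p = 0.751 by limma and 0.0114 by DESeq2), with a range of 2.3e-04 to 1.00 over its alternatives. Its log2 fold change became 0.80 by limma without mutant 1 and 2.79 without mutant 2, and its DESeq2 call was lost without control 1, control 2 or mutant 1. Both mutants were above both controls in each gene, and mutant 1 was the higher of the 2.

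Fosb showed the widest spread in spleen on the log2 scale, at 20.0 and 1.13 in mutants, against 1.59 and 0.0596 in controls, or 266 and 21 reads in mutants, against 23 and 1 in controls. Mutant 2 lay below control 1, and the log2 fold change of 2.42 (SE 1.18, limma adjusted p = 0.779) became 0.59 without mutant 1. Jun read 65.7 and 60.6 in mutants, against 38.4 and 35.7 in controls (log2 fold change 0.76, SE 0.26, limma adjusted p = 0.758). Junb read 96.5 and 92.9 in mutants, against 54.6 and 76.1 in controls (log2 fold change 0.55, SE 0.29, limma adjusted p = 0.779). Atf3 read 4.21 and 2.63 in mutants, against 1.24 and 1.37 in controls (log2 fold change 1.09, SE 0.41, limma adjusted p = 0.763). Both mutants lay above both controls for Jun, Junb and Atf3.

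Nr4a1, which in lymphocytes is induced by antigen receptor signals, read 59.9 and 19.6 in spleen mutants, against 13.2 and 15.9 in spleen controls. Its log2 fold change of 1.22 (SE 0.51, limma adjusted p = 0.779) became 0.43 without mutant 1 and 2.01 without mutant 2. Egr1 read 63.5 and 22.6 in mutants, against 19.4 and 25.8 in controls, with mutant 2 between the controls, and its log2 fold change of 0.75 (SE 0.49, limma adjusted p = 0.779) became 0.01 without mutant 1. Egr2 was low, at 1.427 and 1.23 in mutants, against 1.72 and 1.431 in controls, so mutant 1 and control 2 differed by less than the value of 1 read. Ier2 read 53.0 and 53.3 in mutants, against 40.0 and 43.1 in controls (log2 fold change 0.35, SE 0.26, limma adjusted p = 0.782), so its mutants lay closer together than its controls.

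The spleen result rested in part on mutant 1, which was the highest of the 4 spleen libraries for 8 of the 10 genes. Without it, DESeq2 called 0 of the 10, and the DESeq2 adjusted p of Dusp1 was 5.6e-06 without control 1, 0.00230 without control 2, 0.284 without mutant 2 and 1.00 without mutant 1, which spans the range over its alternatives. That library was also the shallowest, at 12.4 M reads, yet held reads in 32381 genes, against 25166 to 26940 in the other spleens. Without mutant 2, limma called Fos (adjusted p = 2.3e-04), Nr4a1 (0.0344) and Fosb (3.4e-08, with 266 reads in the mutant kept), with the single mutant taken to vary as the controls did. Fibroblast markers were higher in both mutants than in both controls for 6 of 6 genes (18.3% of all genes). Their sums were 2893 to 4747 in mutants and 1761 to 2082 in controls, and Pdgfra, a receptor of mesenchymal cells, was called higher by DESeq2 (0.753% of all genes). Of 6 endothelial markers, 5 were higher in both mutants (18.3%), with sums of 1484 to 1524 in mutants and 952 to 1436 in controls. Erythroid markers were lower in both mutants for 4 of 6 (21.9% of all genes), with sums of 5863 to 8708 in mutants and 8321 to 17938 in controls. Pancreatic acinar markers summed to 13.97 and 6740 in mutants 1 and 2, against 872 and 9.12 in controls 1 and 2. Muscle markers summed to 121 and 74.2 in mutants 1 and 2, against 61.1 and 69.5 in controls 1 and 2. Among them Acta1 and Ckm stood out in mutant 1, at 21.8 and 5.56, against at most 1.38 and 0.214 in the other spleens. DESeq2 called Ckm higher (0.753% of all genes). Mutant 2, at 0.214, and the controls, at 0 and 0.0596, were near the counting floor, so that call rests on mutant 1 and not on both mutants. None of these markers was without reads in spleen, and their part in the result was not tested.

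**Figure D3:**
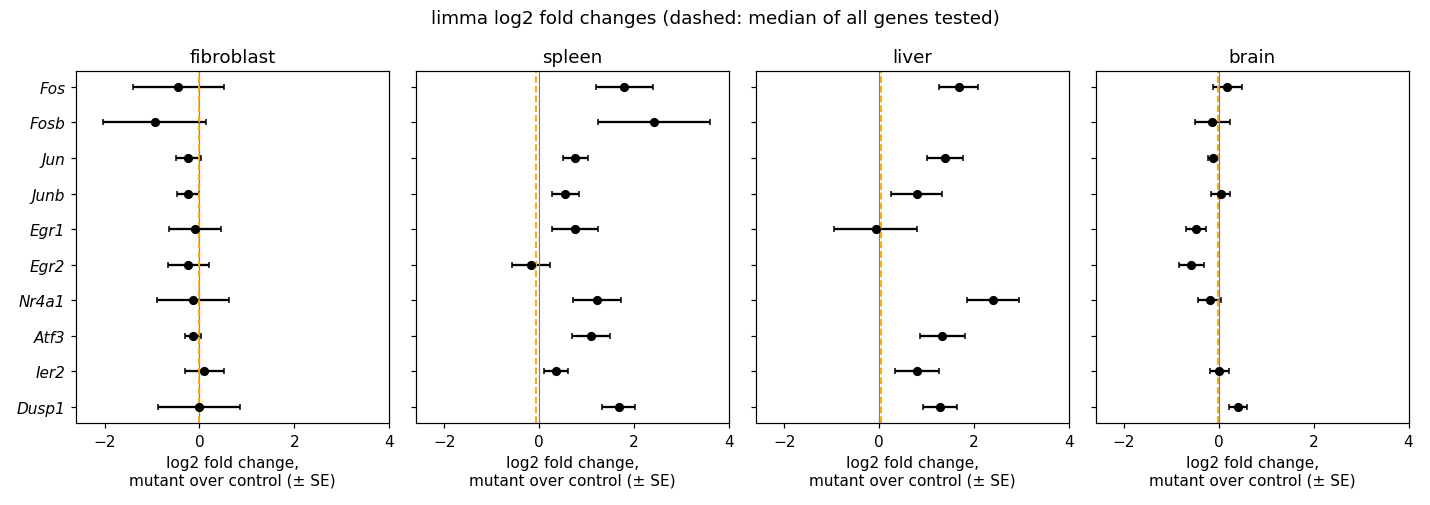
Log2 fold change of each gene, mutant over control, by limma in each tissue, with bars of 1 SE, a grey line at 0 and a dashed line at the median of all genes tested. Genes below a table mean of 1 (Fosb and Egr2 in liver, Atf3 in brain) have no point. In spleen and liver most points lie right of both lines, and in fibroblasts and brain the points lie around them.

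In newborn brain the immediate early genes stayed close to the controls. Of the 9 tested, 1 had non-overlapping groups with mutants higher (13.8% of all 16909 genes) and 2 with mutants lower (16.3% of all genes), and 0 were called by limma, edgeR or DESeq2. Over all genes limma called 0.0177% higher and 0.00591% lower, edgeR 0.0158% and 0.00528%, and DESeq2 0.182% and 0.0313%. Egr1 had the one unadjusted p under 0.05, with mutants lower (1.99% of all genes). The median log2 fold change of the 9 was -0.11, beside -0.01 over all genes.

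Egr1, a marker of neuronal activity, read 19.1 and 14.8 in brain mutants, against 28.7 and 19.5 in brain controls (log2 fold change -0.49, SE 0.21, limma adjusted p = 1.00). Egr2, which is known for its part in hindbrain patterning and myelination, read 1.42 and 1.43 in mutants, against 2.62 and 2.14 in controls (log2 fold change -0.58, SE 0.26, limma adjusted p = 1.00). Dusp1 read 38.4 and 25.7 in mutants, against 23.2 and 24.3 in controls (log2 fold change 0.40, SE 0.19, limma adjusted p = 1.00). For these 3 genes the groups did not overlap, by small margins in Egr1 and Dusp1. Fos overlapped, at 9.88 and 4.77 in mutants against 5.84 and 6.26 in controls. The log2 fold changes of Fos, Fosb, Jun, Junb, Nr4a1 and Ier2 lay between -0.20 and 0.18, and Atf3, at 7 to 14 reads per library, was not tested.

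In fibroblasts grown in culture the groups of all 10 genes overlapped, where 2.07% of all 13077 genes had mutants above and 1.65% below the controls without overlap. The count of called genes was 0 of 10 by limma, edgeR and DESeq2 (0% of all genes higher and, by DESeq2, 0.00714% lower), and 0 of 10 had an unadjusted limma p under 0.05 (0.971% of all genes). The median log2 fold change was -0.19, beside -0.00 over all genes. Fos read 160.3, 35.3 and 25.0 in mutants, against 239.0, 44.8 and 33.8 in controls (log2 fold change -0.45, SE 0.95, limma adjusted p = 0.9997). Fosb read 83.0, 6.83 and 14.2 in mutants, against 131.2, 23.1 and 20.3 in controls (log2 fold change -0.95, SE 1.08, limma adjusted p = 0.9997). Replicate 1 of each genotype was the highest library of its group for both genes, so the spread within a genotype was wider than the difference between genotypes.

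The other genes of the fibroblasts did not all follow Fos. Egr1 read 287.5, 127.6 and 78.9 in mutants, against 267.0, 114.0 and 115.3 in controls, again with replicate 1 highest. Dusp1 read 290.4, 24.2 and 67.4 in mutants, against 104.9, 50.4 and 93.6 in controls, a wide spread in the mutants. Nr4a1 read 82.2, 18.5 and 36.5 in mutants, against 19.8, 33.8 and 109.6 in controls, so control 3 was highest there. Atf3 varied little, at 2.78, 3.18 and 3.15 in mutants, against 3.73, 3.34 and 3.12 in controls. Mutant 2 was the lowest library for 6 of the 10 genes. The log2 fold changes of Jun, Junb, Egr2 and Ier2 lay between -0.24 and 0.10. Without replicate 1 of both genotypes, a choice made after the values were seen, 0 of the 10 genes were called.

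**Figure D4:**
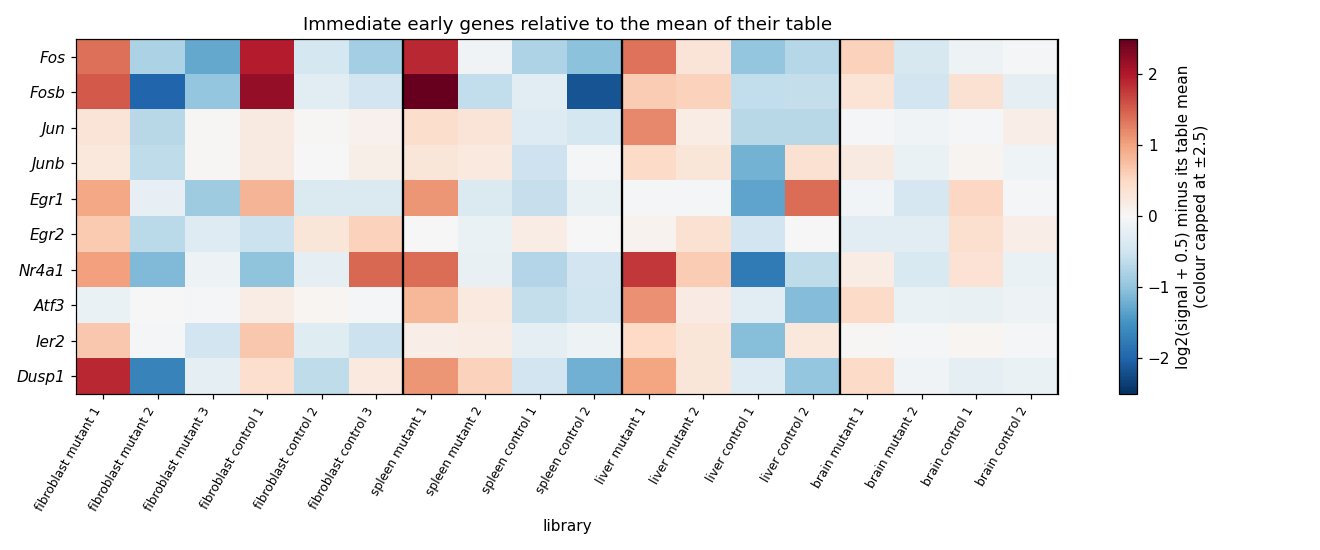
Log2(signal + 0.5) of each gene in each library minus its mean over the libraries of the tissue (red above, blue below, colour capped at 2.5), with mutants left of controls in each tissue and black lines between tissues. Mutant 1 of spleen and of liver are red for most genes, and in fibroblasts replicate 1 of both genotypes is red for Fos, Fosb and Egr1.

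Averaged over the 10 genes, the deviation from the tissue mean on the log2 scale was 1.03 and 0.01 in spleen mutants, against -0.43 and -0.61 in spleen controls. It was 0.81 and 0.32 in liver mutants, against -0.86 and -0.27 in liver controls. The mutants lay above the controls in both organs, and mutant 1 was the higher mutant in each. The labels do not say whether organs with the same number came from the same animal, so the 2 organs may not be independent. It was 0.85, -0.78 and -0.43 in fibroblast mutants, against 0.52, -0.19 and 0.03 in fibroblast controls, and 0.19 and -0.25 in brain mutants, against 0.12 and -0.06 in brain controls, so the genotypes overlapped there. Over the 18 libraries, each gene's correlation with this average, of which it is itself 1 of 10 parts, ran from a Pearson r of 0.41 for Egr2 and 0.64 for Atf3 and Egr1 to 0.91 for Fos. The genes of all 11432 compared whose pattern was most like the average included Hecw2 (r = 0.90), Ppp2r2d (0.89), Kif1a (0.89) and Cdh13 (0.87). Others among the most alike were Ddr2, Whrn, Clint1, Tab2 and Herpud2, at 0.85 to 0.86, and none of these named genes is on the gene lists used here. These are descriptions over libraries that share their tissue, depth and table scaling.

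Whether the difference between genotypes itself differed between tissues was tested for the 7 genes with a mean of at least 1 in every table, in 6 tissue pairs. None of the 42 differences passed (limma, all 18 libraries, adjusted over 11439 genes and all pairs). Over all genes and pairs only 11 differences passed. Of the 42, 5 had an unadjusted p under 0.05, all of Jun or Nr4a1 in pairs that share libraries. The share of all genes under that limit was not counted. The lowest was that of Jun between fibroblasts and liver, with a log2 fold change in fibroblasts minus that in liver of -1.62 (SE 0.39, adjusted p = 0.324), followed by Jun in liver minus brain at 1.501 (SE 0.43, adjusted p = 0.536). Nr4a1 in liver minus brain was at 2.60 (SE 1.12, adjusted p = 0.923). The liver and spleen values thus cannot be said to differ from those of fibroblasts or brain at this number of libraries.

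The wider immediate early programme was described with a list of 28 other such genes. By limma, 0 genes of this and the following lists passed in any tissue. In liver 16 of the 27 tested had mutants above controls without overlap (23.5% of all genes), with a median log2 fold change of 0.50, and DESeq2 called 7 of the 28 higher (0.748% of all genes) and 0 lower. Plk3, a stress kinase, read 179 and 88.8 in liver mutants, against 10.05 and 21.3 in liver controls (log2 fold change 3.06, SE 0.50, adjusted p = 0.408 by limma and 1.05e-07 by DESeq2). Gadd45b, a growth arrest and DNA damage gene, read 105 and 40.2 in mutants, against 14.7 and 14.9 in controls (log2 fold change 2.10, SE 0.48, adjusted p = 0.582 by limma and 5.8e-04 by DESeq2). Ccn2, a matrix protein of YAP and SRF signalling, was called by DESeq2 in all 3 organs. It read 22.1 and 16.2 in liver mutants, against 4.64 and 5.47 in liver controls (DESeq2 adjusted p = 0.00125), 80.1 and 167 in spleen mutants, against 33.6 and 40.0 in spleen controls (0.00482), and 15.5 and 19.5 in brain mutants, against 8.14 and 7.50 in brain controls (0.00368).

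In spleen 10 of the 28 others had mutants above controls (18.3% of all genes) and 2 below (21.9%), with a median of 0.33. Ccn2 was the one called by DESeq2 there (0.753% of all genes called higher). In brain 3 lay above and 7 below (13.8% and 16.3% of all genes), with a median of -0.07, and in fibroblasts 0 lay above and 1 below (2.07% and 1.65%), with a median of -0.16. The other AP-1 genes had a median of 0.61 in liver and -0.14 in spleen, with 0 calls by DESeq2 in any tissue. In liver 4 of the 8 tested lay above the controls without overlap (23.5% of all genes) and 1 below (1979 of 15075 genes). In spleen 3 of the 9 tested lay above (18.3%) and 3 below (21.9%), the latter being Mafg, Batf2 and Batf3. Fosl2 read 66.7 and 38.9 in liver mutants, against 17.4 and 23.8 in liver controls, and 251 and 137 in spleen mutants, against 60.6 and 91.7 in spleen controls. Jdp2 read 19.0 and 15.4 in liver mutants, against 8.14 and 8.88 in liver controls, and 85.8 and 68.4 in spleen mutants, against 22.8 and 39.1 in spleen controls. Both were above the controls in each mutant of the 2 organs without a DESeq2 call. The other EGR and NR4A genes with the NAB corepressors of EGR had medians of -0.17 in liver, where 3 of the 6 were tested, 0.44 in spleen and -0.41 in brain, again with 0 calls. In brain Nab2 read 9.62 and 10.3 in mutants, against 16.4 and 14.2 in controls, and Egr3 3.68 and 6.78 in mutants, against 10.98 and 7.97 in controls, which places them on the same side as Egr1 and Egr2.

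Upstream kinases and factors had medians of 0.09 in liver, 0.02 in spleen, -0.05 in brain and -0.06 in fibroblasts, with 0 calls by DESeq2. In liver 5 of the 21 tested had mutants above controls without overlap (23.5% of all genes), and 2 had a log2 fold change above 1. These were Elk1, a partner of SRF, at 36.3 and 27.7 in mutants, against 14.6 and 15.9 in controls, and Crem, a relative of CREB, at 22.3 and 11.2 in mutants, against 6.93 and 7.32 in controls. Other MAP kinase phosphatases and inhibitors had medians of 0.23 in liver and 0.02 in spleen, with 0 calls. Among them Dusp8 read 26.1 and 13.1 in liver mutants, against 8.20 and 7.24 in liver controls, but 9.76 and 10.99 in spleen mutants, against 25.3 and 16.9 in spleen controls. AP-1 target genes had medians of 0.33 in liver, 0.06 in spleen and -0.19 in brain, and 0 were called. The chaperones of the heat shock response had medians of -0.01 in liver and -0.42 in spleen. In spleen 3 of the 7 had a log2 fold change above 0. Groups did not overlap for 2 with mutants higher (18.3% of all genes) and 1 with mutants lower (21.9%). DESeq2 called 1 of the 7 higher in spleen, Hspb1 (0.753% of all genes).

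Dusp1 is also known as a target of the glucocorticoid receptor, and 9 other such targets were read beside it. In liver all 9 were above the controls in both mutants (23.5% of all genes) and 5 were called higher by DESeq2 (0.748%), with a median log2 fold change of 2.13. In spleen 7 were above (18.3%) and 6 were called higher (0.753%), with a median of 2.21. Zbtb16 read 211 and 145 in liver mutants, against 20.0 and 28.9 in liver controls, and 326 and 154 in spleen mutants, against 14.7 and 31.4 in spleen controls. In brain 7 of the 9 were above the controls (13.8%) with a median of 0.44 and 0 calls, and in fibroblasts, where 8 were tested, 0 were apart and the median was -0.16. Whether this list and the immediate early genes share a source was not tested.

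**Figure D5:**
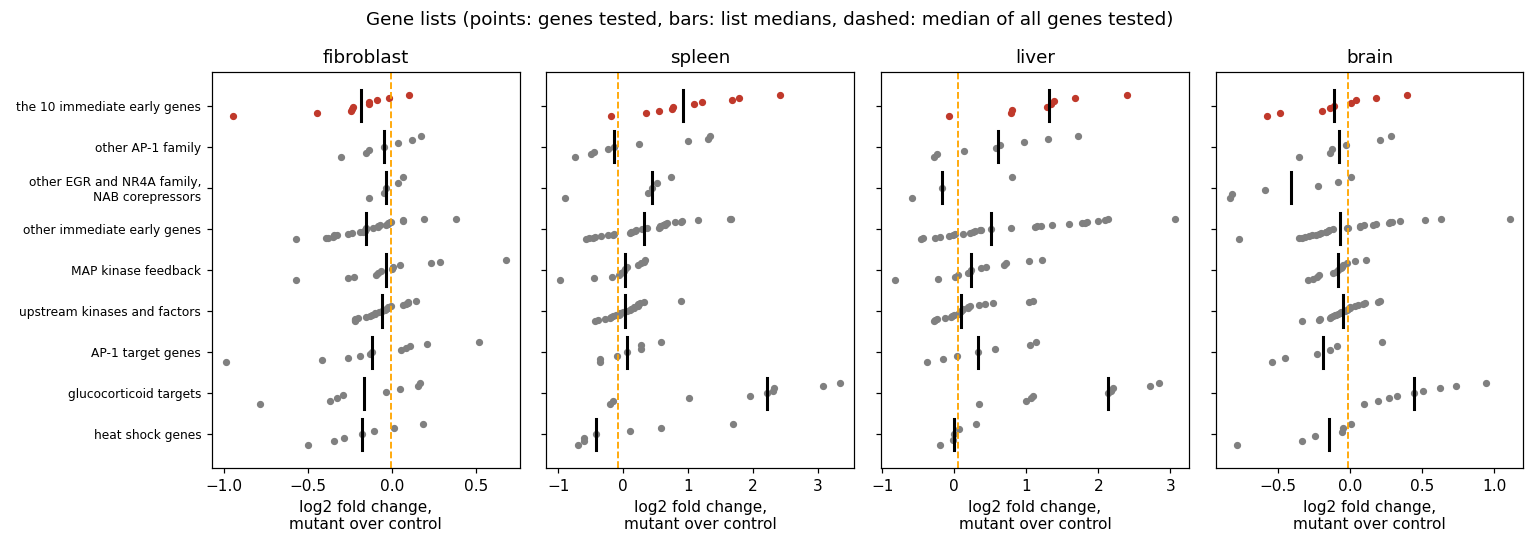
Log2 fold changes, mutant over control, of the genes tested in each list (points, the 10 immediate early genes in red), with black bars at list medians and a dashed line at the median of all genes tested, by tissue. In spleen and liver the immediate early genes (medians 0.92 and 1.31) and the glucocorticoid targets (2.21 and 2.13) have higher medians than the other 7 lists drawn, while single genes of other lists lie as far right, such as Plk3 in liver at 3.06.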

How the data were processed

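Per the labels' protocols, total RNA was extracted with Trizol, depleted of ribosomal RNA and sequenced, per the series' design text, with reads of 50 nt. Per the submitters' processing notes, HTSeq 0.6.1 did the counting and edgeR the normalization, on GRCm38. The sources used here do not give the aligner, the annotation release or the strand setting. The design text names heart where the labels say brain, and the labels were followed. The deposited values are the authors' normalized signal, a scaled read count per gene, in 4 tables normalized separately. Dividing by the value of 1 read, estimated per library from its lowest values, gave whole read counts for 100% of values (within 0.05 of a whole number). Of 46078 identifiers 45229 matched GENCODE release M21, and the 849 others, with at most 0.179% of a library's reads, were left out.

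Genes whose signal averaged 1 or more over a table were tested on log2(signal + 0.5), fitted by limma 3.58.1 (trend, empirical Bayes, R 4.3.3), mutant against control within each table, two-sided, with Benjamini-Hochberg adjustment over all genes at 0.05. As alternatives, edgeR 4.0.16 (quasi-likelihood) and DESeq2 1.42.0 (Wald) were run on the recovered reads, beside other pseudocounts, filters and scalings, all 18 libraries in 1 fit, a replicate block and the omission of each library. DESeq2 without each library was added after its calls were seen. The script was tested on simulated data. Floors (95%) cover counting error only. The p-values set a difference against the spread between these libraries, which limma's empirical Bayes step draws toward a trend over all genes. The genes, the lists and the rule for named genes (from each list at most 4 per tissue, by p, of which only some are described, and the 10 genes most like the average) were chosen with earlier results of these data known. One of the genes most like the average is not reported here. A promoter match used the RefSeq table of GRCm38.p6. Samples with equal numbers were not treated as pairs.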

Additional observations from a re-analysis of the deposited data

Results flagged for a closer look

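For Egr2 the mutants lay on different sides of the controls in different organs, without a call in any of them. Its signal was higher in both liver mutants (mean 0.424, 7 and 15 reads) than in both liver controls (mean 0.172, 1 and 7 reads). It was lower in both spleen mutants (mean 1.33) than in both spleen controls (mean 1.58), and lower in both brain mutants (mean 1.42) than in both brain controls (mean 2.38). The difference between organs was not tested, because Egr2 was below a mean of 1 in the liver table. Liver control 1, at 0.0636, lay under the limit of 0.191 that a count of 0 allows there. Liver mutant 1 and liver control 2 held the same 7 reads, so their order came from the scaling. Spleen mutant 1, at 1.427 (19 reads), and spleen control 2, at 1.431 (24 reads), differed by less than the value of 1 read (0.0751 and 0.0596). The spleen groups were thus barely apart.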

How the results depend on the processing

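Calls in spleen and liver depended on the tool and on single libraries. Over all genes in fibroblasts, spleen, liver and brain in that order, limma called 0, 0, 0 and 4, edgeR 0, 0, 0 and 4, DESeq2 2, 158, 183 and 41, limma on all 18 libraries 1, 174, 278 and 7, and limma with no filter 22, 11 and 13 in the 3 organs. Of the 10 genes DESeq2 called 2 in spleen and 2 in liver, and limma on all 18 libraries 1 in liver. With 1 library left out, limma called 0 to 173 genes in spleen, 0 in liver and 6 to 112 in brain, and 0 to 3 of the 10 genes in spleen and 0 in liver, with medians of the 10 from 0.56 to 1.43 in spleen and from 0.88 to 1.72 in liver. DESeq2 without control 1, control 2, mutant 1 or mutant 2 called 98, 1528, 49 and 56 genes in spleen and 128, 107, 61 and 238 in liver. Of the 10 genes it then called 1, 1, 0 and 1 in spleen and 0, 1, 0 and 3 in liver, with medians from 0.49 to 1.59 in spleen and from 0.90 to 1.74 in liver.

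The direction of each tested gene in spleen and liver held under all alternatives run, except for Egr1, which without mutant 1 was -0.0034 by DESeq2 in spleen, and in liver ran by limma from -1.43 without control 1 to 1.28 without control 2, and by DESeq2 from -1.46 to 1.28. In fibroblasts the omissions turned the direction of Fos (-1.25 to 0.42), Egr1 (-0.60 to 0.33), Nr4a1 (-0.68 to 0.55), Ier2 (-0.21 to 0.47), Dusp1 (-0.96 to 0.82), Jun (-0.45 to 0.051), Junb (-0.43 to 0.018) and Egr2 (-0.61 to 0.048), and Dusp1 was at 0.61 by edgeR and 0.62 by DESeq2, against -0.02 by limma. In brain they turned Fos (-0.31 to 0.67), Fosb (-0.56 to 0.28), Nr4a1 (-0.48 to 0.092), Junb (-0.16 to 0.23) and Ier2 (-0.047 to 0.056). The cause was not tested.

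With the replicate block, limma called 356 genes in spleen, 60 in liver, 4 in brain and 0 in fibroblasts, among them 3 of the 10 in spleen, Fosb (adjusted p = 2.7e-04), Fos (3.1e-04) and Dusp1 (0.00149), and 1 in liver, Dusp1 (0.0491). The labels name no litter or day shared by a number, so the numbers were not taken as pairs. Deviations of same-numbered libraries correlated across genes at -0.08, 0.43 and 0.02 in fibroblasts, -0.03 in spleen, 0.58 in liver and 0.08 in brain. In fibroblasts mutant 1 and control 3 correlated at 0.54. Whether libraries of a number share a litter or day in liver, where the value was highest, cannot be told from the labels. Depth limits what can be seen of Fosb and Egr2 in liver and of Atf3 in brain.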
